A study of Rattus norvegicus with 16 samples.

Results

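Platelet and megakaryocyte transcripts in the whole blood of control rats are described here through 10 genes: Pf4, Ppbp, Itga2b, Itgb3, Gp1ba, Gp9, Gp6, Treml1, Tubb1 and Clec1b. They were found by symbol in the deposited counts, each had 1 entry, and all 10 were listed for every animal, out of 26405 genes listed for at least 1 animal and 18031 listed for all of them. The study asked how much transcript levels in control blood vary when an experiment is repeated. The 16 animals were male Sprague-Dawley rats 85 to 90 days old, an outbred stock, and formed 1 group labelled saline control. Each rat had 4 injections of normal saline, 1 ml/kg each and 2 h apart, had no food or water during that period, and was sacrificed 3 h after the last injection. Blood was drawn from the heart by needle and frozen at once, globin mRNA was depleted, and polyadenylated RNA was sequenced, so no treated group enters the values below.

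Platelets are small fragments without a nucleus that megakaryocytes of the bone marrow shed into the blood, where they stop bleeding. They carry RNA inherited from the megakaryocyte, so a blood RNA sample holds platelet transcripts although platelets do not transcribe genes themselves. Their surface receptors bind the exposed vessel wall and fibrinogen, and their alpha granules release chemokines and clotting proteins once the cell is activated. In bulk blood RNA, fewer platelets and less of a transcript per platelet cannot be told apart.

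Megakaryocyte genes are classically controlled by GATA1, by ETS family factors such as FLI1 and by NFE2, so the promoters were searched for short words that such factors are known to bind. RefSeq promoters of the rat build GRCr8, from 250 bases before to 50 bases after the annotated start, were given for 8 of the 10 genes. Those of 4 genes, the von Willebrand factor receptor chains Gp1ba and Gp9, the integrin chain Itga2b and the receptor Clec1b, are shown 5′ to 3′ on the strand of the gene. Itga2b lies at chr10:87925784-87926083 (minus strand), Gp1ba at chr10:55851309-55851608 (plus strand), Gp9 at chr4:121792592-121792891 (plus strand) and Clec1b at chr4:164533859-164534158 (plus strand). Capitals mark a GATA word (AGATAA or TGATAA or AGATAG or TGATAG) or an ETS word (AGGAAG or CGGAAG) on either strand, so that words such as CTTCCT are matches read from the other strand.
Itga2b: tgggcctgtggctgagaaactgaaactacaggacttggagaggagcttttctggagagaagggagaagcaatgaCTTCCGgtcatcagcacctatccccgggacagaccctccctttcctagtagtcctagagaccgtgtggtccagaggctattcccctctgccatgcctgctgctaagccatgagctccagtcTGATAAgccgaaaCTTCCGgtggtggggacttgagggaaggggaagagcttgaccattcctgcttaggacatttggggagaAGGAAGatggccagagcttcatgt
Gp1ba: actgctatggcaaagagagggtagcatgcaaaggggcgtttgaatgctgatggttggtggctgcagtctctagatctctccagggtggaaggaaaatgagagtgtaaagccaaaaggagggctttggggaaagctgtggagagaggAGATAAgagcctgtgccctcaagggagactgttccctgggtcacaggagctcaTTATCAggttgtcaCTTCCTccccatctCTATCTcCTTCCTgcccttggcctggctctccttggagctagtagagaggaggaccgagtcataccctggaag
Gp9: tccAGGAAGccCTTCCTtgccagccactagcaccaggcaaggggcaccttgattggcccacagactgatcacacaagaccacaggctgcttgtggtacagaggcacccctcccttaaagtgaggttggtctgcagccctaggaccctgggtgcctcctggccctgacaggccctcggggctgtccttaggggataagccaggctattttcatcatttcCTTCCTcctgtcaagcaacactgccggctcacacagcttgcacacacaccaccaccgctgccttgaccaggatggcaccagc
Clec1b: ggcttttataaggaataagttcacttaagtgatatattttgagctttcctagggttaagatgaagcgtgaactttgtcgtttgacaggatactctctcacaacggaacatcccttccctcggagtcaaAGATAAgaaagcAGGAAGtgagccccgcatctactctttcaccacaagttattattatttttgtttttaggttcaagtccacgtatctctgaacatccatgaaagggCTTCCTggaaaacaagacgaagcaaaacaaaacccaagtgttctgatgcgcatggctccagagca

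GATA words stood in 4 of the 8 promoters, those of Itga2b, Gp1ba, Gp6 and Clec1b, and in 29.9% of all 27457 RefSeq promoters of the same length. ETS words stood in 6 of the 8, where Ppbp and Treml1 had none, and in 45.9% of all promoters. Both kinds stood together in 4 of the 8 and in 12.7% of all. The word TGAGTCA, a core that NFE2 shares with other factors, was searched on both strands and occurred in 0 of the 8 and in 4.53% of all promoters. No word overlapped another in the promoters shown. Gp1ba had 3 GATA words, which began at positions -104, -51 and -23 from the start, and Itga2b had 1 at -55. A match is a description of the letters and not a measured binding site. The deposited counts were made on an older build, and its coordinates were not used here.

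The libraries held 21466776 to 31189549 estimated counts. At these depths the smallest detectable amount, taken as 3 counts, was 0.0962 to 0.14 CPM. Levels are given below as DESeq2 normalized counts, which are counts divided by a size factor for each library. Gene lengths in the build of the counts were not used here, so levels are compared between animals and not between genes. File names carried 6 run codes. No label says whether they stand for batches of sequencing or for repeats of the experiment. They were treated as batches, called runs here: A (controls 1 to 3), B (4, 5, 7, 8 and 10), C (6 and 9), D (11 to 14), E (15) and F (16). Controls 2 and 10 stood apart in other genes too. Among 10063 genes averaging 50 normalized counts or more, control 2 was highest by at least 2-fold in 284, against 0 to 24 for each other library. Control 10 was lowest by at least 2-fold in 140, against 3 to 23 for each other library.

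Together the 10 genes took 0.274% ± 0.103 (SD, n = 16) of the counts. The share was lowest in control 10, at 0.025% (95% Wilson interval 0.0244% to 0.0256%), and lay between 0.178% and 0.457% in the other 15 animals, with control 16 the highest. Intervals cover counting error only, because PCR copies are not independent molecules. The total of control 10 was 25161155 counts, inside the range of the other libraries. All 10 genes had counts above that limit in every animal.

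The chemokines of the alpha granule were the first pair. Pf4 (ENSRNOG00000028015) encodes platelet factor 4, a heparin-binding chemokine, and averaged 33520 ± 18800 normalized counts (SD, n = 16). Its levels ran from 5424 in control 10 over a median of 31280 to 75280 in control 7. Ppbp (ENSRNOG00000002829) encodes pro-platelet basic protein, the precursor of a chemokine that attracts neutrophils, and averaged 199.3 ± 132 (SD, n = 16). It ran from 12.45 in control 10 over a median of 149.0 to 417.6 in control 11, where control 8 was close behind at 409.7. In control 10 the Ppbp level rested on 8 counts (95% Poisson interval 3.45 to 15.8). The next lowest animal for both genes was control 13, at 15390 for Pf4 and 65.52 for Ppbp.

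Itga2b and Itgb3 encode the 2 chains of the fibrinogen receptor, the integrin that links platelets to each other. Itga2b (ENSRNOG00000022071) averaged 12380 ± 7040 normalized counts (SD, n = 16), from 954.3 in control 10 over a median of 11190 to 28920 in control 16. Itgb3 (ENSRNOG00000048449) averaged 1716 ± 801 (SD, n = 16), from 246.0 in control 10 over a median of 1629 to 2824 in control 6. Control 12 was the next lowest for both chains, at 3422 and 439.9. Itgb3 is also expressed by other cells, and its coefficient of variation (CV, the SD over the mean) was 46.7%, the smallest of the 10 genes, although 5 of the others were lower when scaled by total counts.

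Gp1ba and Gp9 encode chains of the glycoprotein Ib-IX complex, which catches von Willebrand factor at the vessel wall. Gp1ba (ENSRNOG00000025959) averaged 950.0 ± 665 normalized counts (SD, n = 16), from 98.08 in control 10 over a median of 817.7 to 2614 in control 16. Its CV was the highest of the 10 genes, at 64.2% without control 10, and control 12 was the next lowest at 195.7. Gp9 (ENSRNOG00000010015) averaged 975.7 ± 497 (SD, n = 16), from 143.2 in control 10 over a median of 946.9 to 1818 in control 8. The next lowest Gp9 level was 498.2 in control 13. Control 12 was close behind at 503.1, so the 2 chains had their highest but not clearly their next lowest values in different animals.

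Gp6 and Clec1b encode activating receptors, for collagen and for podoplanin. Gp6 (ENSRNOG00000047204) averaged 1366 ± 744 normalized counts (SD, n = 16), from 216.4 in control 10 over a median of 1346 to 3327 in control 8. Clec1b (ENSRNOG00000008107) averaged 15210 ± 7690 (SD, n = 16), from 2136 in control 10 over a median of 13810 to 30170 in control 16. Clec1b had the narrowest range outside control 10, at 3.3-fold over 15 animals.

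Treml1 (ENSRNOG00000040109) encodes a receptor of the alpha granule membrane that reaches the surface on activation, and Tubb1 the beta tubulin of the platelet's marginal band. Treml1 averaged 4308 ± 2210 normalized counts (SD, n = 16), from 482.6 in control 10 over a median of 4161 to 9848 in control 16. Tubb1 (ENSRNOG00000046151) averaged 929.3 ± 508 (SD, n = 16), from 70.06 in control 10 over a median of 951.2 to 2125 in control 6. Control 12 was the next lowest for both, at 1820 and 269.2. The CV of the 10 genes had a median of 54.6%, and of 48.1% without control 10. Over all 10063 genes that averaged at least 50 normalized counts, the median CV was 25.7%, and 25.3% without control 10.

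**Figure D1:**
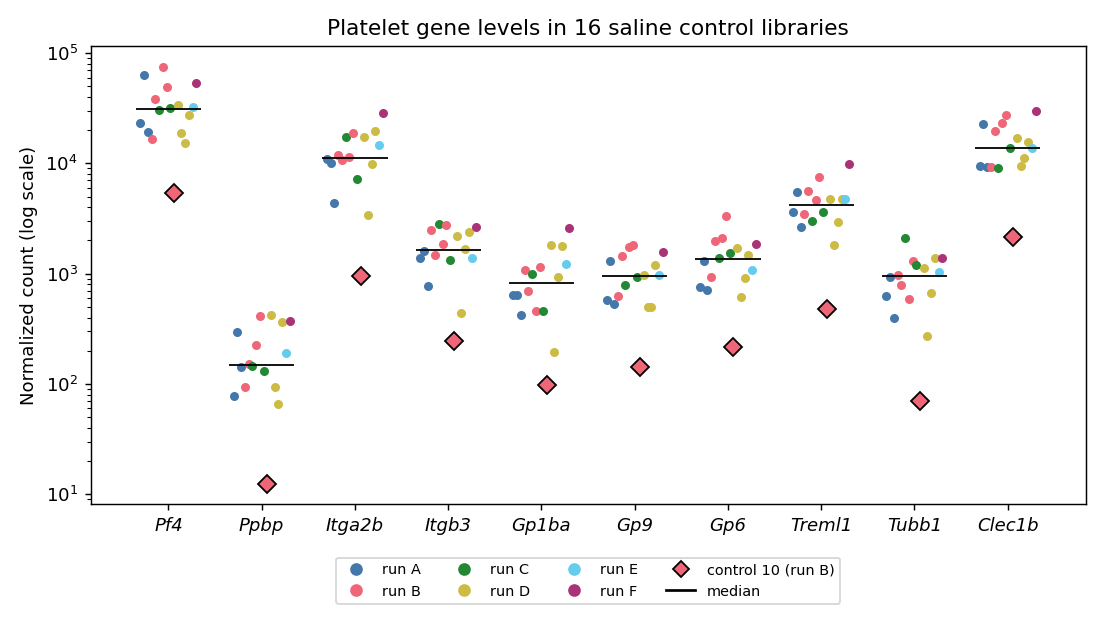
Normalized count (log scale) of each of the 10 genes in the 16 saline control libraries, 1 point per animal, coloured by run code, with a line at the median. Control 10, drawn as a diamond, is the lowest point for every gene, from 5424 for Pf4 to 12.45 for Ppbp.

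Control 10 was the lowest of the 16 animals for 10 of the 10 genes. Of the 10063 genes at that expression level, 9.08% had their lowest value in that animal. For 8 of the 10 genes control 10 was also at least 2-fold below every other animal, against a background of 1.39%. The exceptions were Itgb3 and Gp1ba, where the next lowest animal, control 12, was 1.79-fold and 1.99-fold above it. The median of the other 15 animals exceeded control 10 by 5.88-fold for Pf4, the smallest ratio, and by 13.8-fold for Tubb1, the largest. Control 10 had the lowest size factor, and scaled by total counts instead the ratios were larger, from 9.65 for Pf4 to 21.4 for Ppbp. With size factors the ratio was 12.2 for Ppbp, 11.9 for Itga2b, 9.68 for Treml1, 9.58 for Gp1ba and 6.42 to 6.74 for Itgb3, Gp9, Gp6 and Clec1b. As this is a single animal, it has no replicate check and no test was run.

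Other platelet genes were then read in the same animal, against the same shares of all genes, 9.08% lowest and 1.39% lowest by at least 2-fold. Of 19 further platelet receptors with a mean of at least 50 normalized counts, 12 were lowest in control 10 and 7 were lowest by at least 2-fold. Gp5, another chain of the glycoprotein Ib complex, was at 126.1 in control 10 and at 422.2 or more elsewhere. Of 13 genes of granule cargo and granule formation, 8 were lowest there and 6 by 2-fold, among them the coagulation factor subunit F13a1 (1032 against 5565 or more) and clusterin, Clu (902.9 against 4533 or more). Of 18 genes of platelet signalling, lipid enzymes and cytoskeleton, 12 were lowest and 6 by 2-fold, among them the lipoxygenase Alox12 (309.8 against 1428 or more). Other genes of these lists went in the other direction. Sparc, an extracellular matrix protein also stored in platelets, was at 895.2 in control 10 against a median of 65.33 in the others, with control 12 higher still at 1556. The receptor Cd36 (18390 against a median of 6920) and the signalling list's Tuba4a (8864 against 5231) had their highest values in control 10. Of 8 megakaryocyte transcription factors at that level, 1 was lowest in control 10, too few to set apart from the 9.08%.

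That 1 factor was Tal1, at 219.5 normalized counts against 837.8 or more in the other animals. Gata1 and Gfi1b, which erythroid cells also express, had their highest values in control 10, where the median of the other animals was 0.394 times and 0.562 times that level. Markers of other cell types moved in that animal as well. The summed level of the 9 erythroid markers was highest in control 10, at 965600 normalized counts against 224200 to 836200 in the others. The 8 cardiac muscle markers summed to 496.6 against 0.0 to 86.81, and each of the 8 was at 0 in at least 1 library. The summed level of the 8 endothelial markers was lowest, at 594.7 against 896.6 to 4589. Most of that sum was Vwf, which platelets also carry (362.7 in control 10), and no other endothelial marker was lowest there. Egfl7 was highest in control 10 (29.58 against a median of 6.97), and Emcn, Cdh5 and Cldn5 were above the median of the others. Kdr, Tek and Tie1 were below it. The defining endothelial genes Cdh5 and Cldn5 averaged only 2.28 and 0.589 over the 16 animals. The sums of T cell markers (15720 against 8367 to 18690), B cell markers (8578 against 5031 to 16200), monocyte markers (105100 against 74210 to 320200) and neutrophil markers (150900 against 35530 to 1169000) lay inside the range of the other animals. Most of the monocyte sum in control 10 was Lyz2 (100200), and most of the neutrophil sum S100a8 (44760) and S100a9 (83730). Among single genes the neutrophil marker Ngp was lowest in control 10 (21.79 against 96.07 or more), and the T cell marker Cd28 highest (504.4). The part of these other cell types in the low platelet levels was not tested.

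**Figure D2:**
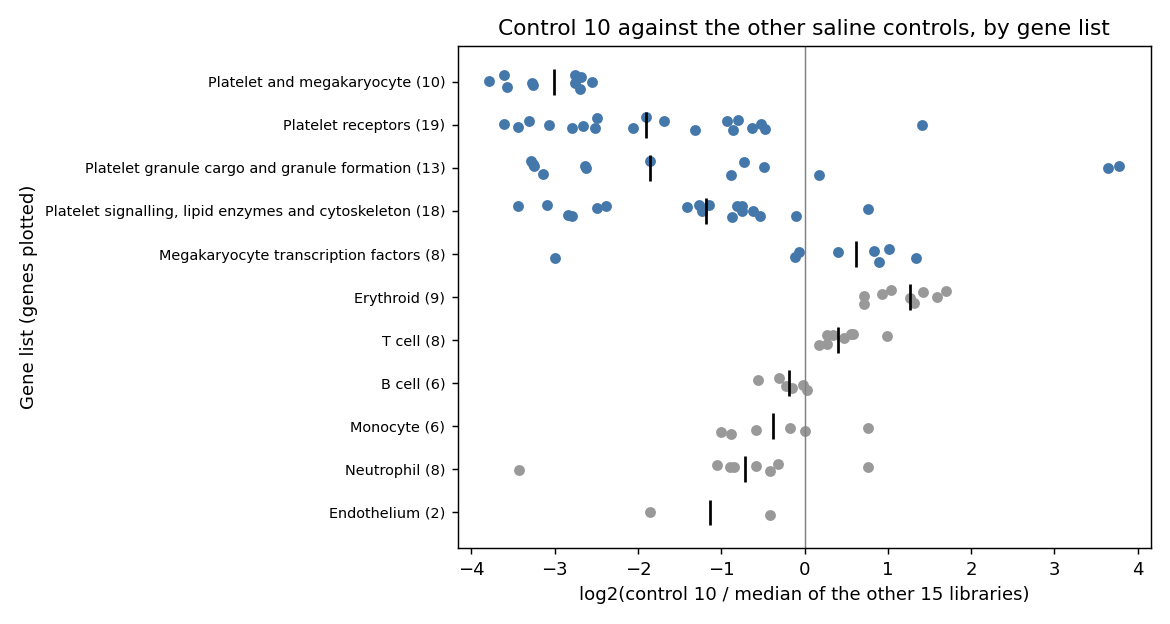
Level in control 10 relative to the median of the other 15 animals, as log2 of the ratio, 1 point per gene with a mean of at least 50 normalized counts and a bar at the median of each list. The 10 platelet and megakaryocyte genes lie between -3.78 and -2.56 with a median of -3.01, the 9 erythroid genes between 0.71 and 1.7, and liver and cardiac markers are not drawn.

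The levels of the 10 genes were then compared with each other across animals, on log2(normalized count + 1), over 45 pairs. Pearson's r lay between 0.54 and 0.967 with a median of 0.842 over the 16 animals, and between 0.189 and 0.929 with a median of 0.684 without control 10. All levels of an animal share its size factor. Read after the fact, the genes were placed in 2 sets that were not sharply divided. Within the first, Pf4, Ppbp, Gp9, Gp6, Treml1 and Clec1b, the 15 pairs had r of 0.722 to 0.929 without control 10. Within the second, Itga2b, Itgb3, Gp1ba and Tubb1, the 6 pairs had r of 0.761 to 0.918. The 24 pairs with 1 gene in each set had r of 0.189 to 0.781, which overlapped both ranges. Treml1 lay between the sets, as its r without control 10 was 0.781 with Itga2b, 0.742 with Pf4 and 0.751 with Ppbp. Because the sets were chosen from these correlations, their separation is a description and was not tested.

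**Figure D3:**
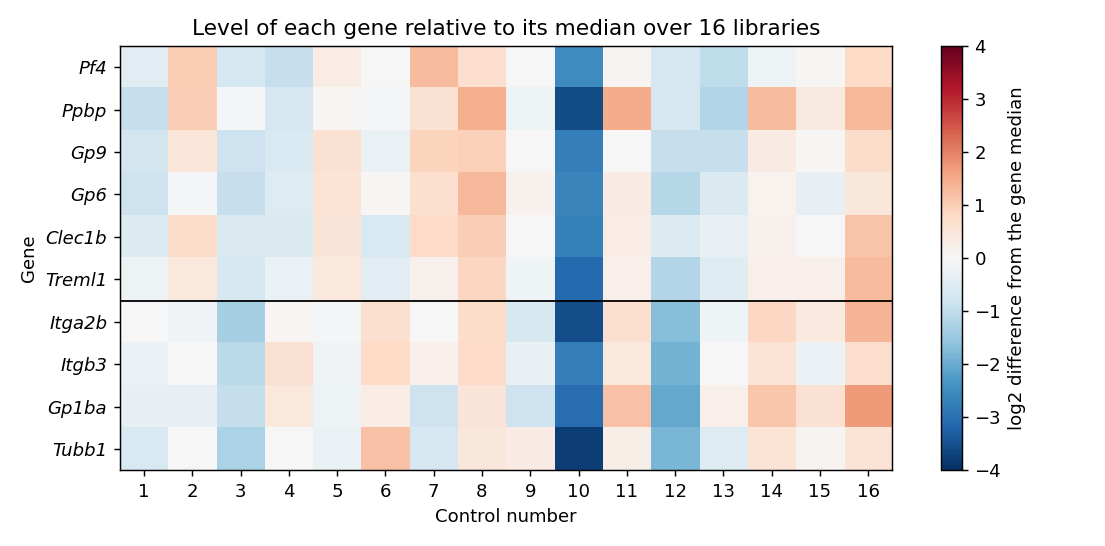
Level of each of the 10 genes in each of the 16 controls, as the log2 difference from the median of that gene, with a line between the 2 sets. Control 10 is low throughout, control 12 is below the median in all 10 genes, and control 2 is above the median for Pf4 and below it for Gp1ba.

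Pairs of genes whose products work together were tested. For the chemokines Pf4 and Ppbp, r was 0.859 (permutation p = 8e-05, two-sided, n = 16) and Spearman's rho 0.806 (permutation p = 0.00031). When the animals most distant from the Pf4 median, controls 10 and 7, were omitted, r was 0.772, without control 10 alone 0.722, and with levels centred within the 4 run codes of at least 2 libraries 0.895 (n = 14). For the integrin chains Itga2b and Itgb3, r was 0.954 (permutation p = 1e-05, the smallest that 100000 permutations can give) and rho 0.862 (permutation p = 3e-05). It was 0.863 without controls 10 and 12, 0.91 without control 10 and 0.983 centred within run codes. Under each of these choices this r was the highest of the 3 pairs.

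For Gp1ba and Gp9, r was 0.667 (permutation p = 0.0059, n = 16), but rho was 0.5 (permutation p = 0.05). Without control 10, r was 0.39 (permutation p = 0.15), and without controls 10 and 12 it was 0.227 (permutation p = 0.43). Centred within run codes it was 0.681 (n = 14), and 0.307 when control 10 was left out as well. The relation of these 2 chains therefore rested on controls 10 and 12. In the edgeR fits over all genes described next, the adjusted p of the 3 pairs was 0.0053, 1.2e-05 and 0.19. The amount of Gp1ba per 100 Pf4 ran from 0.607 in control 7 to 6.54 in control 4, a 10.8-fold range, whereas Gp9 per 100 Pf4 ran from 2.08 to 4.33, a 2.08-fold range.

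A slope was then fitted for every gene on the log2 level of Pf4, with edgeR's quasi-likelihood test and Benjamini-Hochberg adjustment over all genes tested. A slope of 1 means that a gene changed by the same fold as Pf4. Of the other 9 genes, 5 rose with Pf4 at an adjusted p under 0.05, against a background of 3.36% of 13436 genes. They were Gp9 (slope 0.95 ± 0.09 SE, adjusted p = 6.8e-05), Clec1b (0.90 ± 0.11, adjusted p = 0.00015), Gp6 (0.88 ± 0.14, adjusted p = 0.00063), Treml1 (0.90 ± 0.16, adjusted p = 0.0015) and Ppbp (1.15 ± 0.23, adjusted p = 0.0053). None of the 9 fell, and 0.156% of all genes did. Itga2b (0.86 ± 0.27, adjusted p = 0.12), Tubb1 (0.77 ± 0.30, adjusted p = 0.25), Itgb3 (0.58 ± 0.23, adjusted p = 0.29) and Gp1ba (0.68 ± 0.33, adjusted p = 0.41) did not pass the test. Without control 10, Gp9 (0.85), Clec1b (0.75) and Gp6 (0.74) still passed, against a background of 1.26%, and Treml1 (0.65, adjusted p = 0.054) and Ppbp (0.92, adjusted p = 0.11) did not. With the run code as a term, over the 14 libraries of runs with at least 2, the same count of 5 of 9 stood against 1.36%. With that term and without control 10, 0 of the 9 passed, against 0.00747%, which is 1 gene. The slopes were then 0.81 ± 0.13 for Gp9, 0.72 ± 0.13 for Clec1b, 0.68 ± 0.18 for Gp6 and 1.06 ± 0.29 for Ppbp. That of Treml1 was 0.50 ± 0.18.

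On Itga2b, 8 of the 9 other genes rose by the same test, against a background of 2.49%, and none fell, against 0.558%. Gp1ba (0.97 ± 0.10, adjusted p = 1.2e-05) and Itgb3 (0.79 ± 0.08, adjusted p = 1.2e-05) had the smallest p, and Pf4 (0.58 ± 0.17, adjusted p = 0.08) did not pass. Without control 10, Gp1ba (1.08), Itgb3 (0.81), Tubb1 (0.76) and Treml1 (0.60) passed, which is 4 of 9 against 1.28%. The run term left 5 of 9 (1.45%), and the run term without control 10 left 2 (0.134%). On Gp1ba, 5 of 9 rose against a background of 1.99%, and none fell, against 0.522%. They were Itga2b (0.91 ± 0.10, adjusted p = 6.9e-05), Itgb3 (0.73 ± 0.11, adjusted p = 0.0015), Tubb1 (0.79 ± 0.16, adjusted p = 0.011), Treml1 (0.63 ± 0.13, adjusted p = 0.014) and Ppbp (0.72 ± 0.18, adjusted p = 0.05 after rounding). Without control 10, Itga2b (0.76) and Itgb3 (0.60) passed, 2 of 9 against 0.753%. The run term left 3 of 9 (0.82%), and the run term without control 10 left 2 (0.112%). Gp9, the partner of Gp1ba in the receptor, did not pass on Gp1ba with control 10 (0.44 ± 0.17, adjusted p = 0.19) or without it (0.23 ± 0.17, adjusted p = 0.57), though the DESeq2 Wald test called it over the 16 animals (0.45 ± 0.15, adjusted p = 0.048). By that test 7 of 9 rose with Pf4, against 2.41%, including Itga2b and Tubb1, 9 of 9 with Itga2b, against 3.94%, and 8 of 9 with Gp1ba, against 3.18%. Whether a slope differs between the 3 reference genes was not tested. The p-values measure the spread between animals of 1 group, which carried several run codes.

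**Figure D4:**
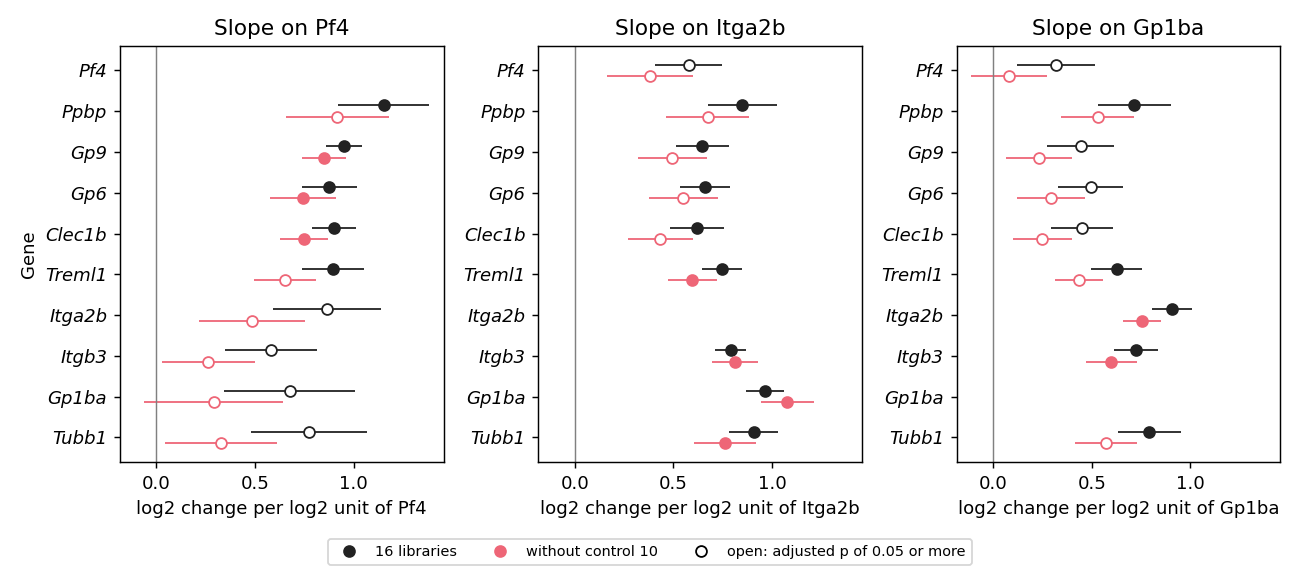
Slope of each of the 10 genes on the level of Pf4, Itga2b and Gp1ba (log2 change per log2 unit), as edgeR estimates with bars of 1 SE, over 16 libraries (black) and without control 10 (red). Filled points have an adjusted p under 0.05, and the slope of Gp9 on Pf4 is 0.95 with control 10 and 0.85 without it.

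Other lists of platelet genes were read against the 3.36% of all genes that rose with Pf4, or 1.26% without control 10. Of 21 receptors, 8 rose, and 4 did without control 10. Of the 4 with the highest mean level, the tetraspanin Cd9 rose (0.75 ± 0.12, adjusted p = 0.00048, and 0.58 with adjusted p = 0.023 without control 10), as did the integrin chain Itgb1 (0.33 ± 0.07, adjusted p = 0.013, and 0.29 with adjusted p = 0.17 without control 10). Fcer1g, the signalling partner of Gp6 that leukocytes also use, had a slope of 0.40 (adjusted p = 0.16), and the scavenger receptor Cd36 one of -0.12 (adjusted p = 0.75). Of 15 granule genes 4 rose, and 1 of 14 tested did without control 10. F13a1 (0.78 ± 0.15, adjusted p = 0.0037) and Clu (0.79 ± 0.18, adjusted p = 0.016) were among them, and did not pass without control 10 (adjusted p = 0.066 and 0.16), while the coagulation factor F5 (0.50, adjusted p = 0.39) and the proteoglycan Srgn (0.37, adjusted p = 0.46) did not pass on Pf4.

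Of 18 genes of signalling, lipid enzymes and cytoskeleton, 7 rose with Pf4, and 2 did without control 10. The myosin light chain Myl9 rose with control 10 (0.87 ± 0.12, adjusted p = 0.00023) and without it (0.70, adjusted p = 0.0079). Neurogranin, Nrgn, rose over 16 animals (0.81 ± 0.18, adjusted p = 0.014) but did not pass without control 10 (adjusted p = 0.17), whereas the actin-binding proteins Tln1 (0.17, adjusted p = 0.69) and Flna (0.07, adjusted p = 0.83), which leukocytes share, did not pass on Pf4. Of 9 transcription factors tested, 1 rose, Tal1 (0.75 ± 0.19, adjusted p = 0.038), and none did without control 10. Nfe2 (0.01, adjusted p = 0.99), Gata1 (-0.06, adjusted p = 0.86) and Gfi1b (-0.19, adjusted p = 0.59) did not pass. No gene of these 4 lists that was tested fell with Pf4.

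The same lists were read on the other reference genes. With Itga2b 11 of 21 receptors, 7 of 15 granule genes, 10 of 18 signalling genes and 1 of 9 transcription factors rose, and with Gp1ba 9 of 21, 5 of 14, 9 of 18 and 1 of 9. Without control 10 the counts in that order were 7, 3, 6 and 1 with Itga2b and 4, 3, 5 and 0 with Gp1ba. The share of all genes that rose was 2.49% with Itga2b and 1.99% with Gp1ba, and 1.28% and 0.753% without control 10. F5 rose on Itga2b (0.73 ± 0.07, adjusted p = 1.3e-05) and on Gp1ba (0.71 ± 0.07, adjusted p = 1.1e-05), and passed on both without control 10. Tln1 also rose on Itga2b (0.38, adjusted p = 0.013) and on Gp1ba (0.41, adjusted p = 0.0025), with or without control 10, and Flna rose on Gp1ba only (0.26, adjusted p = 0.048), which it did not without control 10. Sparc fell on Itga2b (-1.09 ± 0.21, adjusted p = 0.0055) and on Gp1ba (-0.99 ± 0.19, adjusted p = 0.0066), and Tuba4a, an alpha tubulin, fell on both (-0.25 each, adjusted p = 0.039 and 0.04). Without control 10 Sparc still passed on both (adjusted p = 0.026 and 0.041) and Tuba4a on neither (0.19 and 0.22). These adjusted p-values are from the edgeR fits, and the 3 fits share all 16 animals. Sparc and Tuba4a were named after their values were seen. Control 12, which stayed in the fits without control 10, had the highest Sparc (1556). It was also the next lowest animal for Itga2b and Gp1ba, so those fits do not show whether the fall of Sparc rests on it.

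Markers of other cells were read in the same fits. On Pf4, none of 9 erythroid, 6 B cell, 6 monocyte, 8 neutrophil or 6 endothelial markers passed in either direction. Of 8 T cell markers 1 fell, Cd28, and of 5 cardiac markers 1 fell, Mb. Both were highest in control 10, and without it neither passed on Pf4 (edgeR adjusted p = 0.13 and 0.94). All 8 liver markers rose with Pf4, with a median slope of 6.68. Their summed level was 463000 normalized counts in control 2, which also had the second highest Pf4 (63220), and 24460 or less in the other animals. Without control 2, 4 of the 8 liver markers rose, and the count of the platelet and megakaryocyte genes that rose with Pf4 was again 5 of 9, against 2.3%. On Itga2b, Vwf of the endothelial list (0.68, adjusted p = 1.2e-05) and Itgax, an integrin chain of the monocyte list (0.26, adjusted p = 0.0046), rose, and 2 of 5 cardiac markers, Mb and Tnni3, fell. On Gp1ba, Vwf (0.68, adjusted p = 1.3e-05) and Itgax (0.26, adjusted p = 0.0077) rose and 1 of 3 cardiac markers, Mb, fell. Itgax passed on both without control 10, and no cardiac marker did. None of the erythroid, T cell, B cell, neutrophil or liver markers passed on either with control 10 included, and without it 1 erythroid marker, the erythropoietin receptor Epor, rose on Itga2b (0.49, adjusted p = 0.034). The part of these cells' transcripts in the slopes was not tested.

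Genes most like 3 of the members were picked by r over the 16 animals among 9621 other genes with a symbol and a mean of at least 50 normalized counts. For Pf4 they were Agrp (0.958), Npy (0.956), Tax1bp1 (0.953), Smpdl3b (0.942) and Tsc22d1 (0.936). Npy encodes neuropeptide Y, and its mean level here was 96440 normalized counts. For Itga2b they were Gp5 (0.982), Nck2 (0.981), Slc24a3 (0.979), Tspan9 (0.973) and Large (0.971). For Gp1ba they were Pear1 (0.977), Thbs1 (0.974), Gp5 (0.971), Stim1 (0.97) and Rpap1 (0.969). The lists for Itga2b and Gp1ba shared Gp5, while that for Pf4 had no gene in common with either. Without control 10 the 15 values lay between 0.879 and 0.963.

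Finally, the 10 genes were compared between the runs with at least 3 libraries, A (n = 3), B (n = 5) and D (n = 4), in 1 edgeR quasi-likelihood fit. No gene of the 10 passed in any of the 3 contrasts, and none had an unadjusted p under 0.05 with all libraries. Without control 10 none passed either, but the median change of the 10 genes went from 0.26 to 0.54 from A to B and from -0.16 to -0.44 from B to D (log2), and Gp6 from A to B had a change of 1.15 (edgeR unadjusted p = 0.028, adjusted p = 0.34). Over all 12952 genes tested, 0.0% were called between A and B, 0.0% between A and D and 2.3% between B and D, while 13.6%, 5.41% and 11.3% had an unadjusted p under 0.05. By the DESeq2 Wald test 4.34%, 0.0568% and 4.95% of the genes it tested were called, again with 0 of the 10. From A to B the log2 changes ran from 0.04 (Ppbp) to 0.87 (Gp6), from A to D from -0.55 (Pf4) to 1.06 (Gp1ba) and from B to D from -0.62 (Pf4) to 0.79 (Gp1ba). Their SEs were 0.57 to 0.90, so changes of that size were not detectable with these numbers of libraries. Pf4 averaged 35260 ± 24300 in run A, 37130 ± 27600 in run B and 23980 ± 8400 in run D (SD), and 45050 ± 24400 in run B without control 10, with ranges that overlapped.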

How the data were processed

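RNA-seq counts of the whole blood of 16 saline control rats were analysed. The authors clipped the reads with fastq-mcf, aligned them with Bowtie 0.12.9 to Ensembl transcripts of the rat (build rn5), and quantified genes with RSEM 1.2.0, whose estimated counts were deposited without normalization. The replacement of outliers that the study applied later was left out here.

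The estimated counts were rounded to whole numbers. Genes were limited to the 18031 listed in every file, because the lists differed between run codes and the rule behind them was not given in the sources used here. The 10 members and the other gene lists were chosen with earlier results of these data known. Named besides the members were the 4 genes of each list with the highest mean and the 5 genes most like Pf4, Itga2b or Gp1ba. Other genes named for control 10 were chosen after their values were seen.

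edgeR 4.0.16 in R 4.3.3 (TMM, filterByExpr, quasi-likelihood F-test, Benjamini-Hochberg threshold 0.05) gave the slopes and the contrasts between runs. An SE is the absolute estimate divided by the square root of F. DESeq2 1.42.0 gave size factors and an alternative Wald test. The code was tested on simulated data. Correlations used 100000 two-sided permutations and a pseudocount of 1 (Python 3.11.15, scipy 1.17.1). Promoters came from RefSeq (GRCr8). The labels name separate animals, and no other group was compared. Alternatives were other scalings, tests, filters and pseudocounts, the run code as a term, and leaving out each library.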

Additional observations from a re-analysis of the deposited data

Results flagged for a closer look

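Within run B (n = 5), control 10 lay far from the other 4 libraries for 4 of the 10 genes, by Dixon's criterion for a gap over the range above 0.71. Itga2b was at 954.3 normalized counts (gap over range 0.812), Itgb3 at 246.0 (0.737), Tubb1 at 70.06 (0.727) and Treml1 at 482.6 (0.721), each the lowest value of the run. The 10 genes were read in runs B and D, which made 20 comparisons, of which about 1 would pass by chance if the genes varied independently. They did not vary independently, so the 4 are not separate events. Control 10 was also the lowest library of run B for the other 6 genes, where its gap did not pass the criterion.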

How the results depend on the processing

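The number of the 9 other genes that rose with a reference gene depended on control 10. With the run code as a term it was lower for Itga2b and Gp1ba, and for Pf4 it stayed 5, against 1.36% of all genes. That fit also left out controls 15 and 16, which were alone in their runs. It cannot separate the run codes from the loss of those libraries. With the run code as a term, 5 rose with Itga2b and 3 with Gp1ba, against 1.45% and 0.82% of all genes. With that term and without control 10, an alternative chosen after seeing the data, 0 rose with Pf4, 2 with Itga2b and 2 with Gp1ba. Of all genes 0.00747%, 0.134% and 0.112% did, and the slope of Gp9 on Pf4 was 0.81 against 0.95. By the DESeq2 Wald test 7 rose with Pf4, 9 with Itga2b and 8 with Gp1ba, against 2.41%, 3.94% and 3.18% of all genes. Under DESeq2 size factors, scaling by totals, TMM without globin genes or a pseudocount of 10, 4 rose with Gp1ba, and Ppbp no longer passed. Under each of these settings the number of all genes that rose with Gp1ba lay inside the range given below for leaving out 1 library. Leaving out 1 library at a time gave 3 to 5 for Pf4, 4 to 9 for Itga2b and 2 to 5 for Gp1ba, the lowest without control 10 in each case, and for Gp1ba 2 also without control 12 and 3 without control 16. The number of all genes that rose ran from 160 to 479 for Pf4, 167 to 399 for Itga2b and 98 to 283 for Gp1ba, of 12739 to 13446 tested. It too was lowest without control 10. The r of Gp1ba and Gp9 became a rho of 0.5, fell to 0.227 without controls 10 and 12 and to 0.307 centred within run codes without control 10, and ran from 0.39 to 0.755 with 1 library left out. That of Pf4 and Ppbp ran from 0.722 to 0.894 and that of Itga2b and Itgb3 from 0.91 to 0.965. Between runs the count stayed 0 of 10 under every alternative run, although scaling by totals moved the median log2 change of all genes to -0.50 from A to B and to 0.53 from B to D.

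Slopes on Pf4 that did not pass the test changed sign in 5 genes. With 1 library left out, the slope of Cd36 on Pf4 ran from -0.220 to 0.247, that of Flna from -0.092 to 0.123, of Gata1 from -0.103 to 0.352, of Tln1 from -0.037 to 0.275 and of Nfe2 from -0.069 to 0.337, and the sign changed without control 10 for the first 4. With the run term as well, they had 0.03, -0.10, 0.18 and -0.07. Nfe2 had -0.057 under scaling by totals. Scaling by totals also lowered the coefficient of variation of Gp9 to 37.3%, of Gp6 to 39.9% and of Clec1b to 38.2%. Control 10 was at least 2-fold below every other library for 9 of the 10 genes under TMM scaling and for 10 under scaling by totals, both added after seeing the data. The causes were not tested. No paired analysis was possible because the labels give a single group. Depth limited Ppbp in control 10, at 8 counts.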
